A study of Caenorhabditis elegans with 4 samples.

Results

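Solute carriers are membrane proteins that move amino acids, sugars, nucleosides, ions and other small molecules across the plasma membrane and the membranes of organelles, and most of them belong to families of related genes. In *Caenorhabditis elegans* the intestine takes up nutrients, muscle and neurons take up transmitters and metabolites, and germ cells receive nutrients from the soma. The SLC6 family (the *snf* genes) couples uptake to sodium, SWEET proteins (*swt*) are facilitative sugar transporters, equilibrative nucleoside transporters (*ent*) carry nucleosides down their gradient, and SLC25 carriers serve mitochondria. The genes described here were chosen by name: every row of the deposited count table whose WormBase identifier has an Ensembl symbol beginning with aat, slc, slcf, snf, sut, swt, hmit, ent or oct followed by a number. The rule found 74 genes among 20181 rows, all annotated as protein coding. It took in 3 genes that are not transporters by name, *sut-1*, *sut-2* and *sut-6*, whose symbol stands for suppressor of tau, and counts without them are given beside the main ones.

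RNA sequencing libraries came from gonads dissected out of N2 worms, the wild-type laboratory strain (2 libraries), and from whole *glp-4(bn2)* worms (2 libraries), all young adults fed OP50 bacteria, with about 50 gonads or worms pooled in a library. The *bn2* allele is temperature sensitive and is used because mutants kept at the restrictive temperature make few germ cells. The labels give no growth temperature. Dissected gonads include sheath cells, which are somatic, and *glp-4* mutants retain a somatic gonad, so the groups share some cell types. Genotype and tissue change together between the groups and cannot be told apart. In these bulk libraries fewer cells of a type and less RNA per cell cannot be told apart either. Whether duplicates were grown separately is not labelled, so the p-values rest on a spread between samples that may be technical.

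The 4 libraries held 19538620 to 25624824 counts. Where a gene had no count, up to 3 counts are allowed for, worth 0.116 to 0.142 CPM (counts scaled to library size, TMM-adjusted here and throughout). Intervals and limits cover counting error only, since reads amplified by PCR are not independent molecules. The mutated gene *glp-4* (chromosome I, 13548074 to 13559361) had 396 and 434 CPM in gonads, against 571 and 606 CPM in whole worms, which does not check the genotype, since *bn2* is a point mutation. All 10 germline markers were higher in gonads, with sums of 23250 and 24520 CPM in gonads, against 635 and 744 CPM in whole worms. Markers of intestine (8 of 8 higher in whole worms), body wall muscle (6 of 6) and pharynx (5 of 6, the other untested) summed in gonads to 0.407%, 1.99% and 0.136% of their whole-worm level, with *ceh-22*, *tnt-4* and *phat-1* at 0 in both gonad libraries. Of 7 neuron markers 6 were higher in whole worms, with sums of 18.6 and 19.3 CPM in gonads, against 422 and 478 CPM in whole worms. Of 6 epidermis markers 5 were higher in whole worms, with *dpy-7*, *rol-6* and *dpy-13* at 0 in both gonads. Their sums, with *lin-26* included, were 220.1 and 240.1 CPM in gonads, against 902 and 974 CPM in whole worms. The exception, *lin-26*, was higher in gonads and supplied 215.5 and 236.6 CPM of the gonad sums. All 3 coelomocyte markers were higher in whole worms. Of 5 gonad sheath markers 1 (*inx-8*) was higher in gonads, 3 in whole worms and 1 in neither, with sums of 84.9 and 71.8 CPM in gonads, against 147 and 155 CPM in whole worms. Among the 3, *tnc-2* had 0.0949 and 0.0893 CPM in gonads, against 41.6 and 33.4 CPM in whole worms. It thus added almost only to the whole-worm sums. A larger part of those sums came from *ceh-18*, with 1.661 and 1.563 CPM in gonads, against 64.01 and 72.49 CPM in whole worms. The remaining gene, *lim-7*, had 5.078 and 5.36 CPM in gonads, against 11.86 and 17.18 CPM in whole worms. Whether any of the 3 marks sheath cells here was not tested. The part of each tissue in the results below was not tested.

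Most solute carrier genes were higher in germline-poor whole worms, as were most tested genes of any kind. A smaller set, 3 nucleoside transporter genes among them, was higher in gonads. Of the 74 genes, 70 had enough counts to be tested. Enrichment required an adjusted p under 0.05 (edgeR's quasi-likelihood test, adjusted over 13101 genes by the Benjamini-Hochberg method) and a fold of at least 2. By that rule 16 of the 70 (22.9%) were gonad-enriched, where 30.9% of all tested genes were, and 43 (61.4%) were soma-enriched, where 53.1% of all tested genes were. The other 11 were enriched in neither direction (16.1% of all tested genes). Whatever the fold, 93.0% of all tested genes had an adjusted p under 0.05, so passing the test alone sets few genes apart. Without the *sut* genes the counts were 13 gonad-enriched and 43 soma-enriched of 67. The 29 tested genes with at least 10 counts in both whole-worm libraries but not in both gonad libraries passed the count filter through the group in which they were high, and 3 passed through gonads alone. The median log2 fold change (gonad minus whole worm throughout) was -3.55 over the 70 genes, or -3.47 with genes at 0 counts in a group set at a bound, and -1.50 over all tested genes.

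A stricter set was present at 5 CPM or more in both libraries of one group and under 1 CPM in both of the other. It held 1 gonad-specific gene, *ent-5*, where 2.24% of all tested genes were gonad-specific, and 17 soma-specific genes of the 70 tested, where 17.3% of all tested genes were. At a bound that counts a group at 0 as 3 counts, 2 of the 70 differed by 32-fold or more toward gonads (5.51% of all tested genes) and 20 toward whole worms (24.5%). The 74 genes, *sut* genes included, held 0.189% and 0.18% of all counts in gonads and 0.356% and 0.378% in whole worms. The whole-worm shares rested largely on 1 gene. There *swt-3* alone had 27629 and 46703 of the 69553 and 96800 counts of the 74 genes. Of the 74 genes, 36 reached 1 CPM in each gonad library, and 64 and 62 did so in the whole-worm libraries.

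**Figure D1:**
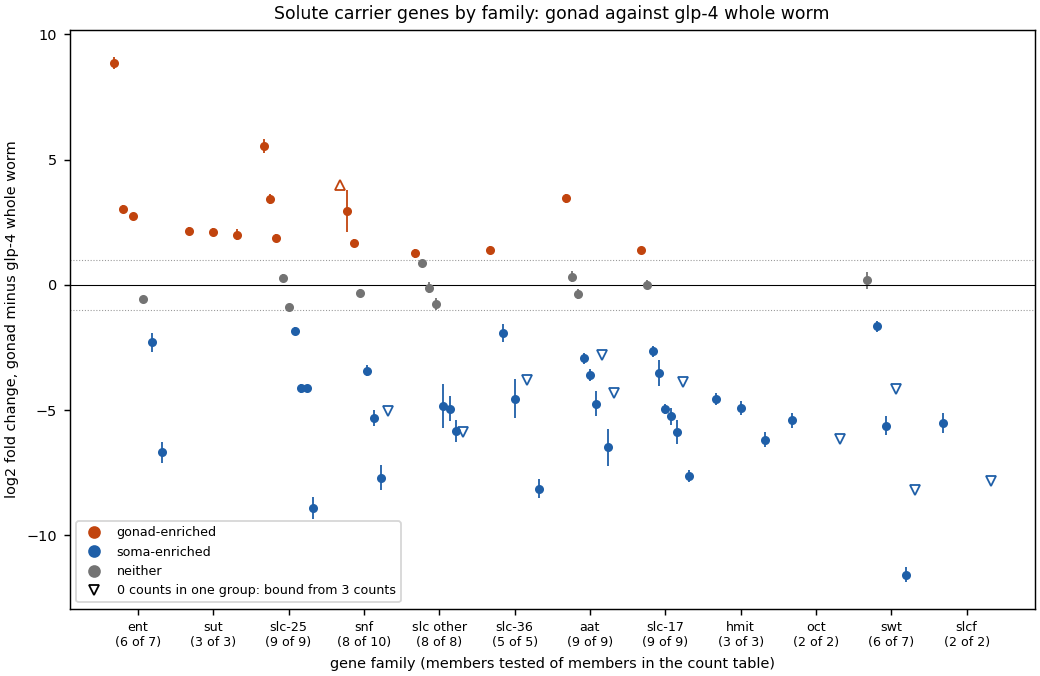
Log2 fold change of each tested gene, gonad minus *glp-4* whole worm (y axis), by family (x axis), with standard error bars from edgeR; open triangles are genes at 0 counts in one group, drawn at the bound that 3 counts over that group give, and dotted lines mark a 2-fold difference. *ent* genes lie on both sides, with *ent-5* highest at 8.85, whereas every tested *hmit*, *oct* and *slcf* gene lies below -4.

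Nucleoside transporters split by paralog. *ent-5* (chromosome X, 4647526 to 4649197) had 92.1 and 88.8 CPM in gonads, against 0.232 and 0.155 CPM in whole worms. Both gonad libraries stood far above both whole-worm libraries, whose values rest on 5 and 4 counts, and the log2 fold change of 8.85 ± 0.25 (SE) was the highest of the 70 (edgeR adjusted p = 2.03e-17). The related *ent-1* (chromosome IV, 11653417 to 11655470) had 259 and 267 CPM in gonads, against 35.0 and 44.0 CPM in whole worms (log2 fold change 2.73 ± 0.14). *ent-6* (chromosome I, 9246028 to 9249358) had 107.8 and 92.4 CPM in gonads, against 12.6 and 11.8 CPM in whole worms (log2 fold change 3.03 ± 0.15). These 3 genes were gonad-enriched, 50.0% of the 6 tested *ent* genes, where 30.9% of all tested genes were.

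The other tested *ent* genes were higher in whole worms. *ent-2* (chromosome X, 15601067 to 15603686) had 113.7 and 108.3 CPM in gonads, against 156 and 174 CPM in whole worms. Its log2 difference of -0.57 ± 0.13 passed the test (edgeR adjusted p = 0.000307) but stayed under 2-fold. *ent-4* was soma-specific, with 1 and 3 counts in gonads, against 226 and 249 in whole worms (log2 fold change -6.69 ± 0.42, or -7.56 without gonad replicate 2). *ent-7* differed by -2.30 ± 0.38, at 0.570 and 0.849 CPM in gonads, against 4.17 and 2.90 CPM in whole worms; an opposite-strand gene covers 9.63% of its exons. Use of strand in the counting is not stated, so reads of such overlapping genes cannot be told apart. *ent-3* had 6 to 9 counts in every library and was not tested.

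Set per length of exon, which allows levels to be compared between genes, the 7 *ent* genes summed to 356 and 347 CPM per kb in gonads and 128.0 and 143 CPM per kb in whole worms, 2.60-fold higher in gonads. In gonads *ent-1* made up 44.6% and 47.2% of that sum, with *ent-5* (18.8% and 18.6%), *ent-2* (18.5% and 18.2%) and *ent-6* (17.9% and 15.8%) close together. In whole worms *ent-2* alone made up 70.6% and 71.0%, and *ent-5* 0.131% and 0.079%. A paralog's share also moves when another paralog changes, so it is a description of make-up and not of that gene's own level. The concentrative nucleoside transporter genes *slc-28.1* and *slc-28.2*, neighbours on chromosome V with 598 bases between them, had at most 1 count in a gonad library. *slc-28.1* had 0 counts in both gonads and 83 and 107 in whole worms, at least 58.0-fold lower in gonads (3 counts over the group). For *slc-28.2* the gonads held 1 and 0 counts and the whole worms 20 and 18, a whole-worm over gonad ratio of 34.8 (exact counting interval, 5.88 to 1411); the fitted log2 fold change was -4.83, or -7.23 without gonad replicate 1 and -3.93 without gonad replicate 2.

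**Figure D2:**
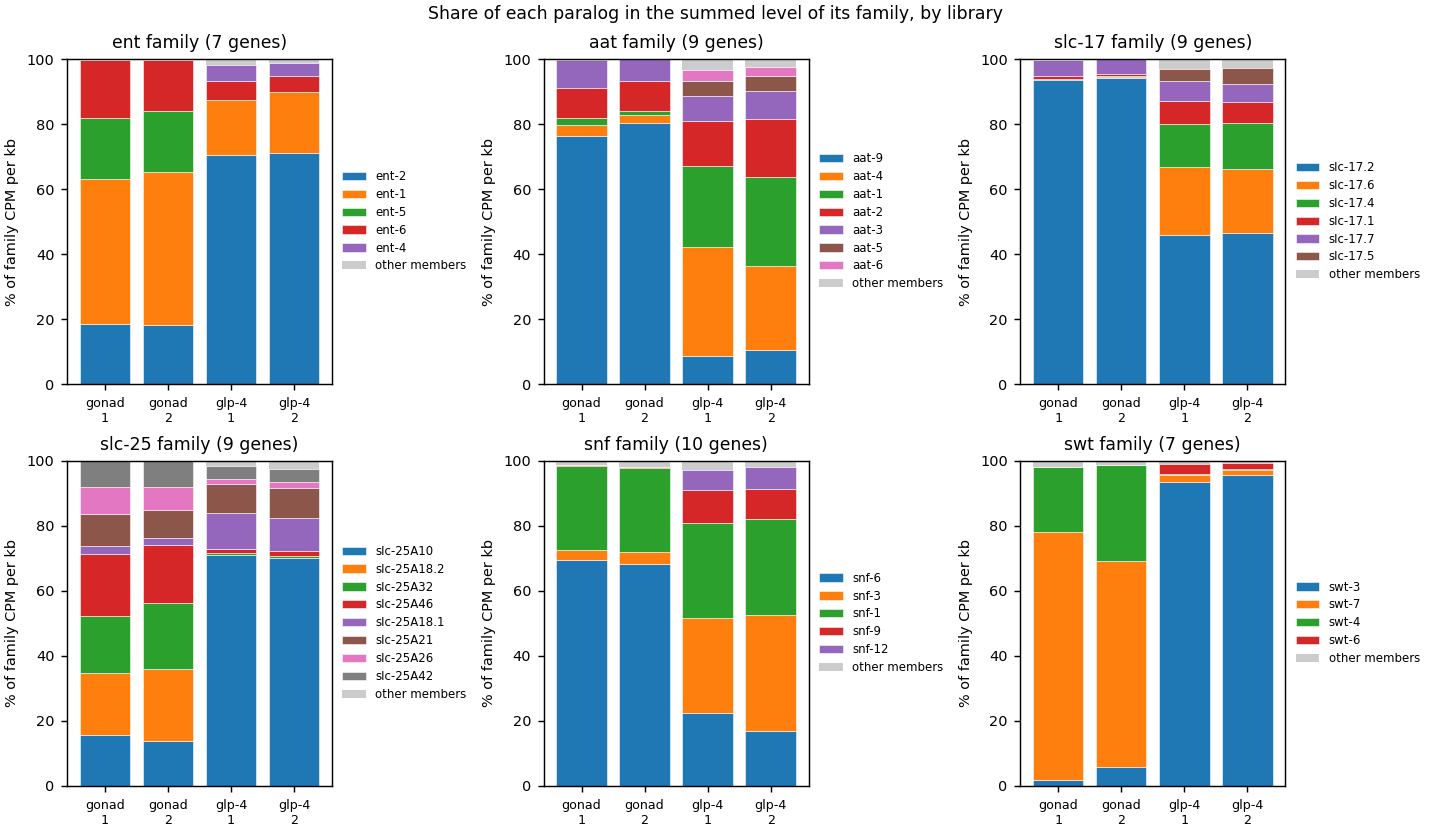
Percent of the summed CPM per kb of exon that each paralog contributed (y axis) in the 2 gonad and the 2 *glp-4* whole-worm libraries (x axis), for 6 families; grey is the sum of members under 3% in every library. *ent-1* leads the *ent* family in gonads and *ent-2* in whole worms, *aat-9* makes up 76.4% and 80.5% of the *aat* sum in gonads, and *swt-3* over 93% of the *swt* sum in whole worms.

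Amino acid transporters of the *aat* family held 1 gonad-enriched gene, and most of the others were soma-enriched. Of the 9 *aat* genes, which encode catalytic chains related to those of heteromeric amino acid transporters, 6 were soma-enriched, 1 was gonad-enriched and 2 were neither. The soma-enriched share was 66.7%, beside 53.1% of all tested genes, and the gonad-enriched share 11.1%, beside 30.9%. *aat-9* (chromosome I, 11388682 to 11396662), an aromatic amino acid transporter, had 86.7 and 109.9 CPM in gonads against 8.06 and 9.87 CPM in whole worms (log2 fold change 3.45 ± 0.17, edgeR adjusted p = 7.92e-14). It supplied 76.4% and 80.5% of the family's level per kb in gonads and 8.81% and 10.5% in whole worms, where *aat-4* (33.4% and 25.9%) and *aat-1* (25% and 27.4%) led.

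*aat-1* had 1.99 and 1.39 CPM in gonads, against 19.04 and 21.4 CPM in whole worms (log2 fold change -3.58 ± 0.24), and *aat-4* differed by -2.93 ± 0.21. The less abundant members were also higher in whole worms. *aat-5* had 4 and 2 counts in gonads, against 84 and 98 in whole worms. *aat-6*, whose protein lies on the luminal side of the intestine, had 1 and 0 counts in gonads, against 59 and 61 in whole worms, a ratio of 110.0 toward whole worms (exact counting interval, 19.4 to 4379); the fitted log2 fold change was -6.48, or -8.88 without gonad replicate 1 and -5.58 without gonad replicate 2. *aat-7* and *aat-8* had 0 counts in both gonads, at least 20.2-fold and 7.03-fold lower there. The difference of *aat-2* (8.78 and 10.3 CPM in gonads, against 10.6 and 14.0 CPM in whole worms) and of *aat-3* (9.45 and 8.89 CPM in gonads, against 6.67 and 7.86 CPM in whole worms) did not pass the test, with log2 differences of -0.37 ± 0.20 and 0.33 ± 0.21. Summed per kb, the family stood at 54.3 and 65.4 CPM in gonads, against 43.8 and 44.9 CPM in whole worms, a difference of 1.35-fold.

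Heavy chains with which some of these catalytic chains assemble, *atgp-1* and *atgp-2*, were both soma-enriched. *atgp-1* had 9.11 and 8.08 CPM in gonads, against 152 and 168 CPM in whole worms (log2 fold change -4.22 ± 0.15), and *atgp-2* had 13.9 and 12.5 CPM in gonads, against 58.7 and 56.5 CPM in whole worms (-2.13 ± 0.15). The RNA of *aat-9* and that of the heavy chains had opposite signs, and whether its protein assembles with them was not tested.

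Proton-coupled amino acid transporters of the *slc-36* group showed 1 gonad-enriched gene beside 4 soma-enriched ones (30.9% and 53.1% of all tested genes). *slc-36.1* (chromosome III, 13307502 to 13313389), related to amino acid transporters of lysosomes, had 32.3 and 33.9 CPM in gonads, against 13.3 and 12.1 CPM in whole worms (log2 fold change 1.39 ± 0.16). *slc-36.2* had 1 and 2 counts in gonads, against 414 and 587 in whole worms, a ratio of 306 toward whole worms (exact counting interval, 104 to 1485). In gonads *slc-36.1* made up 96.2% and 97.6% of the group's level per kb, while in whole worms *slc-36.2* led with 51.4% and 58.7% and *slc-36.1* held 32.7% and 28.8%. The sum was 20.8 and 21.6 CPM per kb in gonads and 25.1 and 26.1 CPM per kb in whole worms.

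The other 3 genes of the group were scarce in both. *slc-36.4* differed by -1.92 ± 0.36 (1.28 and 0.670 CPM in gonads, against 4.12 and 3.29 CPM in whole worms). *slc-36.5* had 0 counts in both gonads and 31 and 15 in whole worms, at least 14.1-fold lower in gonads. Without whole-worm replicate 1 that bound was 8.41-fold, and without replicate 2 it was 20.8-fold. *slc-36.3* had 0 and 2 counts in gonads, against 21 and 36 in whole worms, a ratio of 26.1 toward whole worms (exact counting interval, 6.91 to 221); the fitted log2 fold change was -4.54, or -3.62 without gonad replicate 1 and -7.77 without gonad replicate 2.

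Sugar and polyol transporters were soma-enriched for 8 of the 9 *swt* and *hmit* genes tested, where 53.1% of all tested genes were. *swt-3* (chromosome IV, 10778985 to 10780683) was the most abundant of the 74 genes in whole worms, and had 0.285 and 0.715 CPM (6 and 16 counts) in gonads, against 1280 and 1807 CPM in whole worms. The replicates of each group differed, yet the groups lay more than 3 orders of magnitude apart, and the log2 fold change was -11.56 ± 0.31 (edgeR adjusted p = 1.46e-17), which became -12.36 with gonad replicate 2 left out. *swt-6* had 0 counts in both gonads and 480 and 479 in whole worms, at least 293-fold lower in gonads; an opposite-strand gene covers 9.42% of its exons. *swt-1* (5 and 3 counts in gonads, 203 and 241 in whole worms) and *swt-5* (0 and 0 in gonads, 27 and 32 in whole worms, at least 18.02-fold lower in gonads) had the same direction.

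A pair of SWEET genes were detected at more than trace level in gonads. *swt-7* had 6.41 and 4.29 CPM in gonads, against 16.7 and 16.8 CPM in whole worms (log2 fold change -1.65 ± 0.21). *swt-4* had 2.14 and 2.50 CPM in gonads, against 2.50 and 1.63 CPM in whole worms, and its difference of 0.18 ± 0.34 did not pass the test. An opposite-strand gene covers 13.04% of its exons. *swt-2* had 3 counts in all and was not tested. In gonads *swt-7* made up 76.2% and 63.5% of the family's level per kb and *swt-3* 1.84% and 5.77%.

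All 3 proton-coupled myo-inositol transporter genes, which in worms serve the response to osmotic stress, were soma-enriched. *hmit-1.1* had 1.14 and 1.39 CPM in gonads, against 31.7 and 27.6 CPM in whole worms (log2 fold change -4.54 ± 0.23). Its neighbour *hmit-1.2*, on the same strand of chromosome V with 884 bases between them, had 0.475 and 0.938 CPM in gonads, against 20.7 and 22.2 CPM in whole worms (-4.90 ± 0.28). *hmit-1.3*, on chromosome III, had 0.570 and 0.313 CPM in gonads, against 37.4 and 26.97 CPM in whole worms (-6.18 ± 0.30). In whole worms their levels per kb were 14.9 ± 3.43 CPM for *hmit-1.3*, 14.2 ± 1.4 CPM for *hmit-1.1* and 9.53 ± 0.474 CPM for *hmit-1.2* (SD, n = 2), and the first 2 differed by less than their spread.

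The *slcf* and *oct* genes followed the same direction. *slcf-1*, related to monocarboxylate transporters, had 0 counts in both gonads and 366 and 370 in whole worms, at least 225-fold lower in gonads. *slcf-2* had 2 and 5 counts in gonads, against 157 and 206 in whole worms (log2 fold change -5.52 ± 0.41, or -6.23 without gonad replicate 2). The organic cation transporter genes *oct-1* (0 and 0 counts in gonads, 141 and 90 in whole worms, at least 70.6-fold lower in gonads) and *oct-2* (8 and 9 counts in gonads, 379 and 418 in whole worms, -5.41 ± 0.30) were soma-enriched too.

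**Figure D3:**
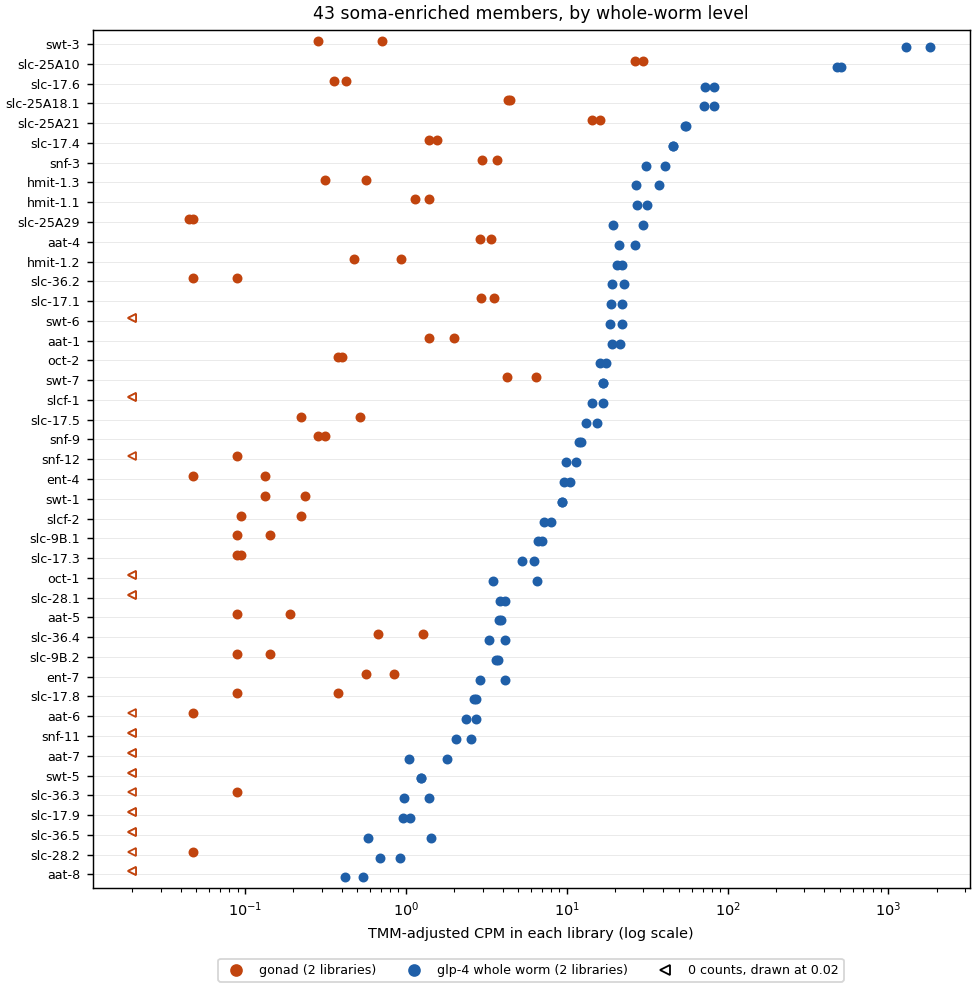
TMM-adjusted CPM in each of the 2 gonad and 2 *glp-4* whole-worm libraries (x axis, log scale) for the 43 soma-enriched genes (y axis, ordered by whole-worm level); open triangles are libraries with 0 counts, drawn at 0.02. Whole-worm levels run from 1807 CPM (*swt-3*) down to 0.417 CPM (*aat-8*), and *slc-25A10* keeps 29.9 and 26.6 CPM in gonads.

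Sodium-coupled transporters of the *snf* family had members in every class. Of 10 genes 8 were tested, of which 3 were gonad-enriched, 4 soma-enriched and 1 neither. Those shares, 37.5% gonad-enriched and 50.0% soma-enriched, lay near the 30.9% and 53.1% of all tested genes. *snf-6* (chromosome III, 1519962 to 1532827), an acetylcholine transporter, had 83.4 and 74.1 CPM in gonads, against 27.6 and 22.2 CPM in whole worms (log2 fold change 1.66 ± 0.15, edgeR adjusted p = 1.58e-09). *snf-1* had 29.1 and 26.3 CPM in gonads, against 33.6 and 35.99 CPM in whole worms, and its difference of -0.33 ± 0.15 passed the test by a small margin (edgeR adjusted p = 0.0435) without reaching 2-fold. Together *snf-6* and *snf-1* made up most of the family in gonads, with 69.6% and 68.1% for *snf-6* and 25.9% and 25.8% for *snf-1* of the level per kb.

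Both other gonad-enriched *snf* genes rested on few counts. *snf-10*, which acts in sperm activation, had 18 and 26 counts in gonads and 0 in both whole worms, at least 16.01-fold higher in gonads. Sperm markers were scarce, and of 6 listed 4 were tested and 3 were higher in gonads. Their sums were 10.01 and 6.83 CPM in gonads, against 3.66 and 3.75 CPM in whole worms, with *spe-42* at 0 in both gonads. Much of these sums came from *spe-41*, enriched in neither group, with 5.08 and 4.42 CPM in gonads, against 3.10 and 3.10 CPM in whole worms. The part of sperm in the *snf-10* value was not tested. *snf-5* had 10 and 13 counts in gonads, against 3 and 0 in whole worms, a gonad over whole-worm ratio of 8.37 (exact counting interval, 2.53 to 43.5). Its fitted log2 fold change of 2.95 ± 0.82 (edgeR adjusted p = 0.00219) became 6.62 when whole-worm replicate 1 was left out and 1.87 when replicate 2 was, where the call was lost (edgeR adjusted p = 0.129).

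Soma-enriched *snf* genes included those of betaine uptake, GABA uptake and epidermal defence. *snf-3*, the betaine transporter, had 2.99 and 3.71 CPM in gonads, against 31.3 and 40.8 CPM in whole worms (log2 fold change -3.42 ± 0.21). *snf-12*, which acts in epidermal defence, had 0 and 2 counts in gonads, against 213 and 294 in whole worms, a ratio of 232 toward whole worms (exact counting interval, 63.97 to 1923); the fitted log2 fold change was -7.69, or -6.77 without gonad replicate 1 and -10.92 without gonad replicate 2. *snf-11*, the GABA transporter, had 0 counts in both gonads and 55 and 53 in whole worms, at least 33.0-fold lower in gonads. *snf-9* differed by -5.31 ± 0.33, with 6 and 7 counts in gonads, against 264 and 307 in whole worms. *snf-2* and *snf-7* had 4 and 6 counts over the 4 libraries and were not tested.

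Mitochondrial carriers were split between the groups. Of the 9 *slc-25* genes 4 were soma-enriched (44.4%), 3 gonad-enriched (33.3%) and 2 neither, near the 53.1% and 30.9% of all tested genes. The substrates named here are those of the human proteins. *slc-25A10* (chromosome X, 6723743 to 6725668), a dicarboxylate carrier, had 29.9 and 26.6 CPM in gonads, against 509.7 and 481 CPM in whole worms (log2 fold change -4.13 ± 0.15). It supplied 15.8% and 13.8% of the level per kb of the 9 genes in gonads and 70.9% and 70.1% in whole worms. Summed per kb, the 9 genes stood at 167.0 and 169.9 CPM in gonads, against 636 and 607 CPM in whole worms.

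A pair of genes named for the glutamate carrier went in opposite directions. *slc-25A18.2* (chromosome IV, 7475041 to 7476182) had 32.7 and 39.0 CPM in gonads, against 1.16 and 0.426 CPM in whole worms (log2 fold change 5.54 ± 0.28). The value became 6.35 when whole-worm replicate 1 was left out and 4.93 when replicate 2 was. *slc-25A18.1* (chromosome X, 15002034 to 15003941) had 4.46 and 4.33 CPM in gonads, against 81.9 and 71.7 CPM in whole worms (log2 fold change -4.12 ± 0.17). *slc-25A18.2* was the more abundant of the pair in gonads and *slc-25A18.1* in whole worms. Per kb, *slc-25A18.2* averaged 34.4 CPM in gonads against 0.761 CPM in whole worms, and *slc-25A18.1* averaged 3.82 CPM in gonads against 66.7 CPM in whole worms.

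Folate carrier gene *slc-25A32* was also gonad-enriched, with 35.2 and 41.1 CPM in gonads, against 2.96 and 4.06 CPM in whole worms (log2 fold change 3.43 ± 0.20). So was *slc-25A46*, whose human protein shapes the outer mitochondrial membrane, with 55.5 and 52.7 CPM in gonads, against 14.5 and 14.7 CPM in whole worms (1.89 ± 0.15). *slc-25A29*, named for a carrier of basic amino acids, had 1 count in each gonad library and 420 and 769 in whole worms, a ratio of 545 toward whole worms (exact counting interval, 151 to 4503). The oxodicarboxylate carrier gene *slc-25A21* differed by -1.85 ± 0.15, at 16.2 and 14.3 CPM in gonads, against 54.6 and 55.0 CPM in whole worms. *slc-25A42*, a coenzyme A carrier gene, had 20.4 and 20.3 CPM in gonads, against 38.8 and 37.04 CPM in whole worms, and passed the test under 2-fold (-0.90 ± 0.15). *slc-25A26*, an S-adenosylmethionine carrier gene, did not pass it (0.27 ± 0.18, 18.1 and 16.2 CPM in gonads, against 13.8 and 14.6 CPM in whole worms).

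Organic anion transporters of the *slc-17* group held both the most abundant of the 74 genes in gonads and several with few or no counts there. *slc-17.2* (chromosome III, 9387601 to 9390107) had 388 and 357 CPM in gonads, against 147 and 141 CPM in whole worms (log2 fold change 1.37 ± 0.13, edgeR adjusted p = 6.01e-09), and *tkr-1* on the opposite strand covers 5.81% of its exons. It held 93.5% and 94.3% of the group's level per kb in gonads and 45.8% and 46.5% in whole worms. *slc-17.7* did not pass the test, at 21.9 and 17.6 CPM in gonads, against 21.3 and 18.2 CPM in whole worms, a difference of 0.00 ± 0.17.

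The other 7 *slc-17* genes were soma-enriched (77.8% of the 9, where 53.1% of all tested genes were). *slc-17.6* had 0.427 and 0.357 CPM in gonads, against 82.6 and 72.8 CPM in whole worms (log2 fold change -7.61 ± 0.24), and *slc-17.4* had 1.57 and 1.39 CPM in gonads, against 45.7 and 45.9 CPM in whole worms (-4.95 ± 0.21). *slc-17.1* had 3.51 and 2.95 CPM in gonads, against 21.96 and 18.9 CPM in whole worms (-2.66 ± 0.21), and *slc-17.3* differed by -5.88 ± 0.47. *slc-17.5* differed by -5.25 ± 0.33 (leaving out gonad replicate 1, -5.92), and *slc-17.8* by -3.52 ± 0.51 (leaving out gonad replicate 1, -4.79, and leaving out gonad replicate 2, -2.80). *slc-17.9* had 0 counts in both gonads and 23 and 25 in whole worms, at least 14.7-fold lower in gonads.

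Ion and metabolite carriers of the smallest groups had members in each class. Of the zinc transporter genes, *slc-30A5* had 267 and 303 CPM in gonads, against 139.9 and 176 CPM in whole worms, a log2 difference of 0.85 ± 0.14 that passed the test under 2-fold. It crossed 2-fold without whole-worm replicate 2, at 1.01. *slc-30A9* was gonad-enriched, with 15.3 and 14.9 CPM in gonads, against 6.21 and 6.42 CPM in whole worms (1.26 ± 0.19). *slc-46A*, of a family that carries folates in humans, had 3.99 and 4.42 CPM in gonads, against 7.55 and 6.73 CPM in whole worms (-0.76 ± 0.23, edgeR adjusted p = 0.00418). *slc-5A12*, named for a sodium-coupled monocarboxylate transporter, had 9.26 and 6.66 CPM in gonads, against 9.73 and 7.59 CPM in whole worms (-0.12 ± 0.22, not passing the test), and an opposite-strand gene covers 12.2% of the exons of *slc-5A12*. The sodium and proton exchanger genes *slc-9B.1* (3 and 2 counts in gonads, 144 and 181 in whole worms) and *slc-9B.2* (3 and 2 in gonads, 81 and 94 in whole worms) were soma-enriched, by -5.83 ± 0.43 and -4.94 ± 0.50.

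The suppressor of tau genes, which the name rule included, were all gonad-enriched to a like degree (30.9% of all tested genes were gonad-enriched). *sut-2*, encoding a zinc-finger protein that binds poly(A) RNA, had 95.8 and 100.7 CPM in gonads, against 21.03 and 24.4 CPM in whole worms (log2 fold change 2.11 ± 0.14). *sut-6* had 71.8 and 62.2 CPM in gonads, against 15.6 and 14.9 CPM in whole worms (2.14 ± 0.15), and *sut-1* had 11.7 and 12.8 CPM in gonads, against 2.96 and 3.14 CPM in whole worms (2.00 ± 0.22).

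**Figure D4:**
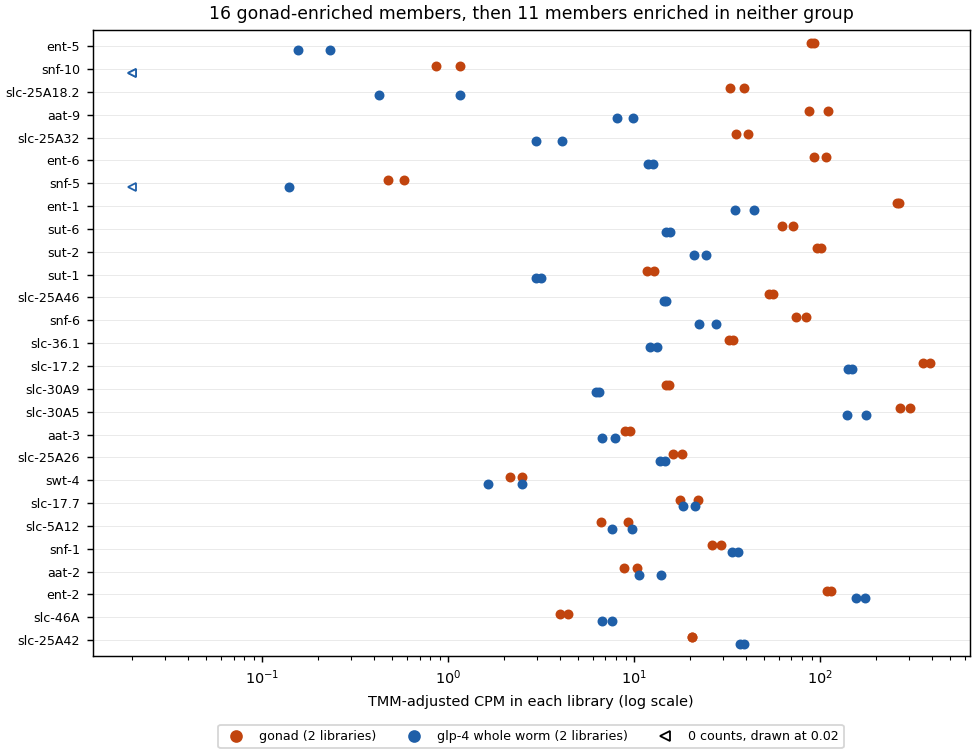
TMM-adjusted CPM in each of the 2 gonad and 2 *glp-4* whole-worm libraries (x axis, log scale) for the 16 gonad-enriched genes and then the 11 tested genes enriched in neither group (y axis, each set ordered by fold change); open triangles are libraries with 0 counts, drawn at 0.02. *ent-5* stands at 92.1 and 88.8 CPM in gonads with under 1 CPM in whole worms, while *snf-10* and *snf-5* lie at 1.16 CPM or less in every library.

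Among the 74 genes, gonads and whole worms were led by different ones in level per kb. In gonads *slc-17.2* came first at 208 ± 12.1 CPM per kb (SD, n = 2), followed by *ent-1* (161 ± 3.28) and *slc-30A5* (112.7 ± 9.82), each apart from the next by more than its spread. *sut-6* (68.9 ± 6.94), *ent-5* (65.7 ± 1.69), *ent-2* (64.5 ± 2.22) and *ent-6* (59.3 ± 6.46) followed, and then *aat-9* (47.1 ± 7.87). *sut-6*, *ent-5* and *ent-2* differed by less than the SD of *sut-6*, and *ent-2* and *ent-6* by less than the SD of *ent-6*. In whole worms *swt-3* came first at 1039 ± 251 CPM per kb and *slc-25A10* second at 438 ± 18.1, holding 44.8% and 18.9% of the sum over the 74 genes. *ent-2* (95.8 ± 7.55), *slc-17.2* (80.5 ± 2.56), *slc-25A18.1* (66.7 ± 6.27) and *slc-30A5* (62.4 ± 10.03) came next. Over the 74 genes the sum was 1133 and 1118 CPM per kb in gonads and 2153 and 2487 CPM per kb in whole worms.

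**Figure D5:**
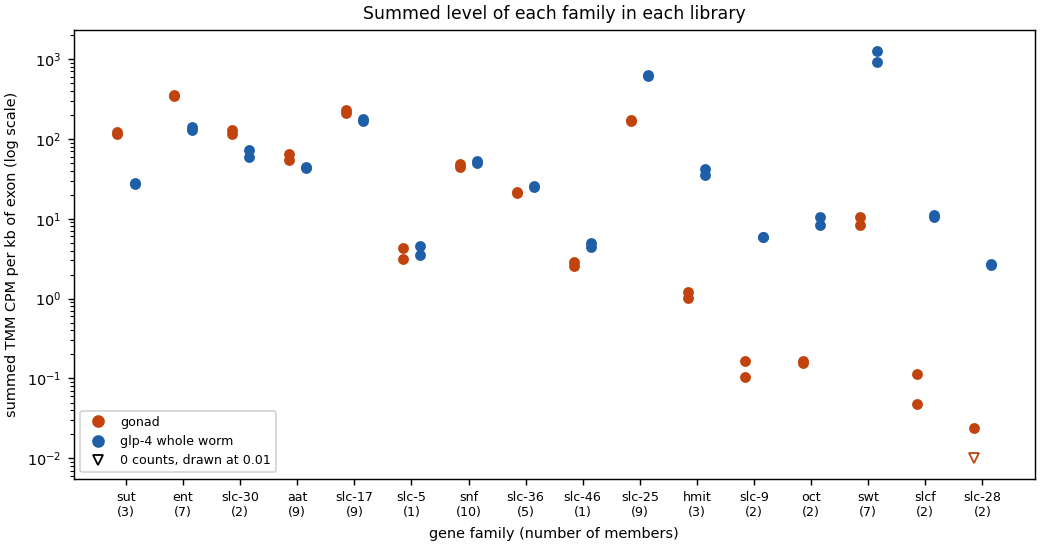
Summed TMM-adjusted CPM per kb of exon of each family (y axis, log scale) in each gonad and *glp-4* whole-worm library, with families ordered by the ratio of gonads to whole worms and their number of genes below the name; the open triangle is a library with 0 counts, drawn at 0.01. The *sut* and *ent* sums are highest in gonads relative to whole worms, and the *swt* sum lies at 10.4 and 8.34 in gonads against 924 and 1273 in whole worms.

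Summed levels set the families side by side. With 2 libraries against 2 an exact permutation test cannot go below p = 0.333, so the sums are given without a test. Gonads over whole worms, the ratio of summed levels per kb was 4.32 for *sut*, 2.60 for *ent*, 1.84 for *slc-30*, 1.35 for *aat*, 1.27 for *slc-17*, 0.903 for *snf*, 0.829 for *slc-36* and 0.271 for *slc-25*. It was 0.029 for *hmit*, 0.0226 for *slc-9*, 0.0168 for *oct*, 0.00853 for *swt*, 0.00741 for *slcf* and 0.00449 for *slc-28*, whose gonad sum rests on 1 count. The single genes of *slc-5* and *slc-46* had ratios of 0.919 and 0.589. Under upper-quartile scaling the log2 ratio of *slc-17* turned to -0.02, from 0.35.

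Low levels of soma-enriched solute carrier genes in gonads covered a wide range. For the 43 genes the gonad level was a median of 2.09% of the whole-worm level, or 3.14% with the 10 genes at 0 counts in both gonads set at the limit of 3 counts, and the highest value was 31.9% (*swt-7*). Of the 33 genes with a gonad count, 4 lay under 0.5%, 18 from 0.5% to under 5% and 11 at 5% or more. For the 10 genes at 0 the upper limits ran from 0.341% (*swt-6*) to 14.2% (*aat-8*), and 2 of them, *swt-6* and *slcf-1*, were limited to under 0.5%. The marker sums lay at 0.136% for pharynx, 0.407% for intestine, 1.99% for body wall muscle, 4.15% for coelomocytes, 4.22% for neurons and 24.5% for epidermis. *swt-3*, at 0.0324%, lay under all of these sums. In gonads the epidermis sum was nearly all *lin-26*, with 215.5 and 236.6 of 220.1 and 240.1 CPM. That gene was itself gonad-enriched, so the epidermis sum gives no yardstick for the other epidermis markers. *slc-25A10* (5.70%), *slc-17.1* (15.8%) and *slc-25A21* (27.8%) were among the soma-enriched genes that lay above the neuron sum.

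Chromosome X held 13 of the 74 genes, all tested. Of these 10 were soma-enriched, where 79.9% of all tested X-linked genes were, 2 were neither (*ent-2* and *aat-3*) and 1, *ent-5*, was gonad-enriched, where 7.73% of all tested X-linked genes were. On the autosomes the counts also stood beside differing backgrounds. Gonad-enriched were 4 of 11 tested genes on chromosome I (44.4% of all tested genes there), 3 of 7 on II (35.9%), 4 of 7 on III (40.3%), 2 of 14 on IV (34.0%) and 2 of 18 on V (23.1%). Soma-enriched were 4 of 11 on chromosome I (35.1% of all tested genes there), 4 of 7 on II (48.4%), 2 of 7 on III (38.4%), 9 of 14 on IV (48.9%) and 14 of 18 on V (66.6%).

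Transporter genes outside the name rule were also listed by role. Of 73 listed symbols 70 were matched and 62 tested, with 8 gonad-enriched, 41 soma-enriched and 13 neither, and a median log2 fold change of -3.07. Over all tested genes 30.9% were gonad-enriched, 53.1% soma-enriched and 16.1% neither, with a median of -1.50. The counts of each list below stand beside those same shares. Genes of peptide and dicarboxylate uptake were soma-enriched for 5 of 6 tested. The intestinal peptide transporter gene *pept-1* had 0.285 and 0.0447 CPM in gonads, against 155 and 159 CPM in whole worms (-9.88 ± 0.28), and *nac-1* differed by -6.75 ± 0.36. Neurotransmitter transporter genes were soma-enriched for 13 of 14 tested, among them the glutamate transporter gene *glt-1* (1.85 and 1.25 CPM in gonads, against 86.1 and 91.9 CPM in whole worms) and the vesicular transporter gene *vglu-2* (0.285 and 0.357 CPM in gonads, against 44.0 and 42.5 CPM in whole worms).

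Of 20 tested ion-coupled transporter genes 17 were soma-enriched and 1 was gonad-enriched, where 53.1% and 30.9% of all tested genes were. The gonad-enriched gene was *nkcc-1*, a sodium, potassium and chloride cotransporter gene. It had 210.3 and 239 CPM in gonads, against 47.1 and 51.3 CPM in whole worms (log2 fold change 2.19 ± 0.14). The proton exchanger gene *nhx-2* (-6.56 ± 0.24) and the anion transporter gene *sulp-7* (-3.42 ± 0.19) were among the soma-enriched.

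Transporters of nucleotide sugars supply glycosylation in the Golgi. Of 14 such genes listed 10 were tested, and *nstp-3*, *nstp-7*, *nstp-8* and *nstp-9*, at 0 counts in both gonads, were not. Among the 10, 5 were gonad-enriched (30.9% of all tested genes), 1 soma-enriched (53.1%) and 4 neither (16.1%). *nstp-5* had 161 and 154 CPM in gonads, against 33.3 and 34.7 CPM in whole worms (2.21 ± 0.13), *nstp-10* differed by 2.36 ± 0.16, and the exception *nstp-6* by -5.26 ± 0.46. The monocarboxylate transporter genes, relatives of *slcf-1*, fell into every class. *mct-5* had 219 and 242 CPM in gonads, against 2.64 and 3.17 CPM in whole worms (6.30 ± 0.17, edgeR adjusted p = 1.34e-17), *mct-4* had 12.6 and 11.6 CPM in gonads, against 190.0 and 188 CPM in whole worms (-3.97 ± 0.15), and *mct-3* differed by -3.16 ± 0.17. *mct-6* did not pass the test (0.07 ± 0.14).

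Among 6 tested mitochondrial carriers outside the name rule, *ucp-4* was gonad-enriched (1.03 ± 0.15) and *ant-1.2* soma-enriched. The abundant ADP/ATP carrier gene *ant-1.1* had 2971 and 3423 CPM in gonads, against 4818 and 6053 CPM in whole worms, a difference of -0.77 ± 0.18 that passed the test under 2-fold.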

How the data were processed

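RNA was isolated with PicoPure, depleted of ribosomal RNA with Ribo-Zero and made into libraries with the Ovation RNA-Seq System V2, per the labels' protocols. For the aligner, counting program, genome build and use of strand, the sources used here give nothing. The authors deposited raw counts per gene for 20182 rows and a second table on a log2 scale, whose values equalled log2 of the scaled count plus 8 within 5e-05 and were not used further. One row that repeated another gene's counts was left out. Symbols, coordinates and exon lengths come from Ensembl release 115 (WBcel235), which may not be the authors' annotation; 19513 of 20181 rows matched it.

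Counts were tested with edgeR 4.0.16 (R 4.3.3, quasi-likelihood, robust, TMM, filterByExpr with a minimum count of 10 and total of 15, group as the only term). SEs were derived from the F statistic. The script was run on simulated counts in which few genes changed. In these data 93.0% of all tested genes had an adjusted p under 0.05, so that run could not check the scaling here. Levels per kb divide CPM by the union of exons. Alternatives were RLE and upper-quartile scaling, no filter, DESeq2 1.42.0, a replicate block, each library left out, a 4-fold minimum, longest-transcript lengths and other detection limits. Replicates differed beyond sampling noise (chi-square per degree of freedom 18.9 in gonads and 16.9 in whole worms). Genes named by rule were every gonad-enriched gene, every tested gene enriched in neither group, whole families of at most 4, the 15 highest per kb in whole worms, and in larger families the 3 highest in whole worms and the 2 soma-enriched genes highest in gonads; from other lists, the 2 highest in the list's direction and all in the rarer one. Remaining genes are given so that all are accounted for. The genes and lists were chosen with earlier results of these data known. The listed symbols *fgt-1*, *nhx-7* and *mct-1* matched no row, so nothing was analysed under those names.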

Additional observations from a re-analysis of the deposited data

How the results depend on the processing

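Across RLE and upper-quartile scaling, no filter, DESeq2 and each library left out, 15 to 16 solute carrier genes were gonad-enriched and 42 to 45 soma-enriched. Without the *sut* genes, an alternative chosen after seeing the data, 13 were gonad-enriched. With the replicate number as a block, counts of the solute carrier genes were 16 and 43, and over all tested genes 4019 and 6904, and no call changed, though the difference of *slc-17.7* became -0.00; same-numbered libraries shared only a number (correlation of their deviations 0.0893). A 4-fold minimum gave 11 gonad-enriched solute carrier genes, 2603 of all tested genes, and 0 in each of *slc-17*, *slc-30* and *slc-36*. A detection limit of 2 CPM gave 2 gonad-specific genes.

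Upper-quartile scaling moved the median of all genes by -0.36 on the log2 scale, and gonad-enriched genes made up 32.8% of enriched genes in place of 36.8%. It left 0 gonad-enriched *slc-30* genes and made 1 *slc-46* gene soma-enriched. Its log2 ratios of summed levels were 0.07 for *aat*, 1.02 for *ent*, -5.47 for *hmit*, -6.26 for *oct*, -0.02 for *slc-17* (reversed from 0.35), -2.25 for *slc-25*, 0.52 for *slc-30*, -0.63 for *slc-36*, -1.13 for *slc-46*, -0.51 for *snf* and 1.75 for *sut*. It reversed the signs of *aat-3* (-0.03), *slc-17.7* (-0.36), *slc-25A26* (-0.09) and *swt-4* (-0.18), none past the test in either fit. It took *slc-25A42* (-1.26) and *slc-46A* (-1.12) past 2-fold and *slc-30A9* (0.90) under it. RLE gave -1.80 for *slc-25*, -0.19 for *slc-36* and 2.19 for *sut*. Without a filter *slc-17.7* stood at -0.02. Apart from the shift of all genes, the cause was not tested.

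Leaving out 1 library gave 1 to 2 gonad-enriched *slc-30* genes, and moved *slc-17.7* between -0.13 and 0.16, *slc-5A12* between -0.33 and 0.11 and *swt-4* between -0.13 and 0.49. *snf-5* lost its call under DESeq2 (3.07, adjusted p = 0.0524), and *aat-8* and *snf-5* were untested without some libraries. With 2 libraries a group, genes of a few counts are limited by depth, as 10 soma-enriched genes had 0 counts in both gonads.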
